A study of Mus musculus with 6 samples.

Results

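The genes of the endothelin and angiotensin systems were examined in cultured disc cells of 3 Chsy3 genotypes. The 7 genes, taken by symbol from a table of 46095 gene symbols, were Edn1, Ednra, Ednrb, Ece1, Agt, Ace and Agtr1a, and every one was found. They encode ligands, receptors and converting enzymes, and they were selected on measured values: they were proposed after the fold changes between the genotypes in these libraries were known, among them the large difference of Ednrb and Agt between knockout and wild type. Their own values are therefore given as a description, with fold changes and standard errors (SE) but no p-values. The samples were primary cells labelled as nucleus pulposus, the gel-like core of the intervertebral disc, from male mice of 8 weeks, grown in serum-containing medium and harvested at passage 2. There were 2 libraries each from wild-type mice, from mice heterozygous for Chsy3 and from Chsy3 knockout mice. Chsy3 encodes a chondroitin sulfate synthase. Whether the libraries within a genotype stand for different animals or cultures, whether animals were pooled and how the allele was made are not stated in the labels.

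Endothelin-1 is a short vasoconstrictor peptide cut from the product of Edn1, last by endothelin-converting enzyme, the product of Ece1. It acts through a receptor pair encoded by Ednra and Ednrb, of which the B type also takes up and clears the peptide. In the renin-angiotensin system, renin cuts angiotensinogen, the product of Agt, and angiotensin-converting enzyme, the product of Ace, turns the resulting angiotensin I into angiotensin II, which acts mainly through the type 1 receptor, encoded in mice by Agtr1a and Agtr1b. Both systems are best known from blood vessels, heart and kidney, and both drive matrix production in fibroblasts, whereas the core of a healthy disc has no blood vessels.

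Total counts lay between 29622117 and 33899611 per library, and levels are given as CPM, counts scaled to library size with TMM factors. A count of 0 allows up to 3 counts, or 0.0880 to 0.104 CPM. Chsy3 itself had 284 and 284 counts in wild type, 167 and 197 in heterozygous and 118 and 76 in knockout libraries. The 12 markers of nucleus pulposus and notochord summed to 74.4 to 112 CPM, with T, Shh and Noto at 0 counts in every library, while the summed level of 7 fibroblast markers was 18500 to 34400 CPM and that of 8 macrophage markers 12600 to 15800 CPM. The Y-linked genes Ddx3y, Uty, Kdm5d and Eif2s3y had 0 counts in both heterozygous libraries and 7.67 to 31.7 CPM in the others, against the male label, and Xist was at 651 to 1080 CPM in all 6. In every comparison with the heterozygous libraries, genotype and this sex-linked difference cannot be told apart. Within a genotype, the 2 libraries differed more than counting noise, with a median squared deviation 3.43 to 3.53 times that of pure counting, and the factor was hardly larger, 3.56 to 3.75, for genes with over 2000 counts in a pair.

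The promoters of 3 of the genes are shown because their transcripts took different courses over the genotypes: Ednrb and Agt were high in both mutant genotypes, and Edn1 in the knockout alone. They are the 250 bases before the RefSeq start on GRCm38.p6, read 5′ to 3′ along the gene, for Ednrb chr14:103843702-103843951 (minus strand), for Agt chr8:124569707-124569956 (minus strand) and for Edn1 chr13:42301226-42301475 (plus strand). The Ednrb window precedes a RefSeq start that lies inside the gene's annotated span, downstream of its outermost start, and it shares no base with an annotated exon of Ednrb. Capitals mark matches to any of 6 motifs searched on both strands.
Ednrb promoter: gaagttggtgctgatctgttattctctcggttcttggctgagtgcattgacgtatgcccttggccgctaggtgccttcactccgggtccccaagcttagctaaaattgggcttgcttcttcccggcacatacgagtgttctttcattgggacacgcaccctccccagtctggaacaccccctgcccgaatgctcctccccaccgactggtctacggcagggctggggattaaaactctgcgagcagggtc
Agt promoter: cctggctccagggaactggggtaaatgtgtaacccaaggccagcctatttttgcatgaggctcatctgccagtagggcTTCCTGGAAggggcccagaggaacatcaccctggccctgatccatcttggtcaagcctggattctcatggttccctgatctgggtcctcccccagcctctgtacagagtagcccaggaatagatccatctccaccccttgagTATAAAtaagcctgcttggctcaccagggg
Edn1 promoter: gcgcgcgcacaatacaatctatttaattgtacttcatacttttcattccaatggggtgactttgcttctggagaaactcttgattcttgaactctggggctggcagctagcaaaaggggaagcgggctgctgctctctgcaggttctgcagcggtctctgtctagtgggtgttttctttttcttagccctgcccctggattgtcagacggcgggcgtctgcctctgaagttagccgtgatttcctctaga
The motifs were the TATA box TATAAA, the GC box GGGCGG, the AP-1 site TGACTCA, the STAT site TTCNNNGAA, the hypoxia response core ACGTG and the GATA site GATAAG, and none of them contains another. In the Agt promoter TATAAA began 30 bases before the start, on the gene's own strand, and TTCNNNGAA, whose letters read alike on both strands, began 172 bases before it. Of 32851 promoter windows of this length, 12.4% held TATAAA, 32.7% GGGCGG, 4.46% TGACTCA, 7.02% TTCNNNGAA, 16.6% ACGTG and 6.55% GATAAG. The Ednrb and Edn1 windows held no match to these letters. Base composition differed as well, with 0 CpG dinucleotides in the Agt window, 11 in that of Ednrb and 9 in that of Edn1, against a median of 6 over all windows. The RefSeq table had promoter entries for 6 of the 7 genes, and none for Agtr1a.

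Ednrb, the type B endothelin receptor (chromosome 14, 103814615 to 103844508, GRCm38), was far higher in both mutant genotypes than in wild type. The wild-type libraries held 253 and 263 reads of it (7.44 and 7.74 CPM), the heterozygous libraries 1702 and 2007 (59.0 and 63.1 CPM), and the knockout libraries 2716 and 3018 (82.4 and 88.5 CPM). The 3 genotypes did not overlap. The means were 7.59 ± 0.214, 61.1 ± 2.90 and 85.5 ± 4.30 CPM (SD, n = 2). On the log2 scale heterozygous exceeded wild type by 3.01 ± 0.08 (SE), or 8.05-fold, and knockout by 3.49 ± 0.08, or 11.3-fold. Knockout lay 0.48 ± 0.06 above heterozygous. By size of the log2 fold change, Ednrb in knockout against wild type exceeded 99.1% of the 16061 genes tested. The gene was selected on this difference, so the rank is a description only. Since the samples are bulk RNA, more cells of a type and more transcript per cell cannot be told apart for any of these genes.

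Pigment, glial and endothelial cells are known to carry this receptor, and their markers were compared. Of 10 markers of melanocytes and Schwann cells, Dct and Tyr had 0 counts in all libraries, and the list summed to 34.9 to 38.5 CPM in wild-type, 49.2 to 49.8 in heterozygous and 43.2 to 46.5 in knockout libraries. Of its 7 tested genes, 3 were called higher and 0 lower in heterozygous against wild type (background 19.2% and 19.7%). In knockout 1 was higher and 3 lower (background 19.2% and 18.9%). Sox10, which defines the neural crest glia and pigment lineages, had 29 and 67 counts in wild type, 104 and 85 in heterozygous, and 0 and 2 in knockout. Mitf, which made up most of the sum and is also made in macrophages, was at 28.5 ± 2.26, 38.1 ± 1.43 and 41.2 ± 3.09 CPM (SD, n = 2), lowest in wild type as Ednrb was. The 10 endothelial markers summed to 37.0 to 37.3, 27.7 to 29.8 and 74.3 to 77.8 CPM in wild type, heterozygous and knockout, with Cldn5 at 0 in all. Most of this sum came from Vwf (20.4, 21.0 and 54.9 CPM) and Kdr (7.34, 5.08 and 18.7 CPM), both highest in knockout, and Pecam1 was at 0.0882, 0.296 and 0.792 CPM. Other endothelial markers went the other way, with Cdh5 (6.54, 0.73 and 0.99 CPM) and Esam (2.29, 0.031 and 0.12 CPM) highest in wild type. The part of these cells in the Ednrb difference was not tested.

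Ednra, the type A receptor (chromosome 8, 77663029 to 77724452), was lower in knockout than in the other genotypes. Its counts were 299 and 282 in wild type (8.79 and 8.30 CPM), 250 and 330 in heterozygous (8.67 and 10.4 CPM), and 190 and 183 in knockout (5.77 and 5.37 CPM). Wild type and heterozygous overlapped, and both knockout libraries lay below the other 4. Knockout gave a log2 fold change of -0.62 ± 0.16 (SE) from wild type and -0.78 ± 0.16 from heterozygous, and heterozygous one of 0.16 ± 0.16 from wild type. An exon of Ednra shares 91 bases with the noncoding gene 4933431K23Rik on the opposite strand. With the strand setting of the counting not given in the sources used here, reads there cannot be told apart. Markers of pericytes, which carry this receptor in vessels, summed to 645 to 646 CPM in wild type, 594 to 620 in heterozygous and 467 to 468 in knockout, and those of smooth muscle to 3710 to 3770, 2660 to 2690 and 2190 to 2230 CPM. In knockout against wild type 1 of 7 tested pericyte markers was higher and 4 lower (background 19.2% and 18.9%). Of 6 smooth muscle markers, 0 were higher and 5 lower there. In heterozygous against wild type, the tallies were 1 and 2 for pericyte and 2 and 3 for smooth muscle markers (background 19.2% and 19.7%). Most of the pericyte sum came from Pdgfrb and Cspg4, and most of the smooth muscle sum from Acta2 and Tagln. Abcc9 was highest in knockout (0.309, 0.611 and 1.89 CPM in wild type, heterozygous and knockout). Myh11 was lowest in wild type (22, 25.8 and 23.8 CPM). The part of these cells in the Ednra difference was not tested.

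The 2 endothelin receptors thus took opposite courses between wild type and knockout. Per kilobase of exon (union of annotated exons), Ednrb and Ednra were close in wild type, at 1.78 ± 0.0503 and 1.56 ± 0.0632 CPM per kilobase (SD, n = 2). In knockout they stood at 20.0 ± 1.01 and 1.02 ± 0.0516. Their ratio per length was 1.09 and 1.2 for wild type, 8.74 and 7.81 for heterozygous and 18.3 and 21.2 for knockout, so that no genotypes overlapped in it. Across 1234 aligned coding bases the genes were 66.9% identical, with a longest shared run of 12 bases.

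**Figure D1:**
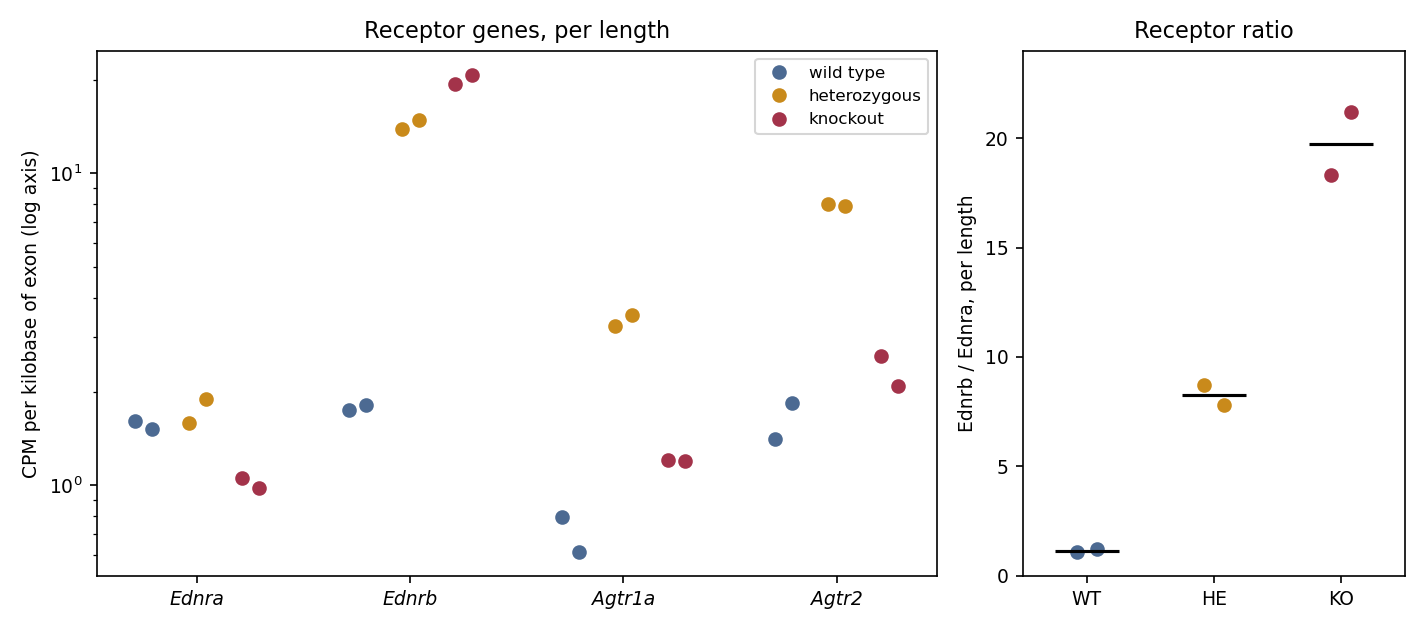
Left, CPM per kilobase of exon on a log axis for 4 receptor genes, with 1 point per library and colours for the genotypes; right, the ratio of Ednrb to Ednra per length, with lines at the mean of 2 libraries. The ratio lies near 1.14 for wild type, 8.27 for heterozygous and 19.8 for knockout, and Agtr1a and Agtr2 are highest in heterozygous.

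Edn1, the ligand gene (chromosome 13, 42301476 to 42307990), was higher in knockout than in the other genotypes, at low counts. It had 20 and 29 counts in wild type (0.588 and 0.853 CPM), 20 and 26 in heterozygous (0.694 and 0.818 CPM) and 58 and 86 in knockout (1.76 and 2.52 CPM). Both knockout libraries were above the other 4, and wild type and heterozygous overlapped. Knockout gave a log2 fold change of 1.57 ± 0.44 (SE) from wild type and 1.5 ± 0.44 from heterozygous, and heterozygous one of 0.07 ± 0.47 from wild type. With at most 86 counts a library, the large SE of Edn1 leaves a wide range of possible differences between heterozygous and wild type. An exon of Edn1 shares 35 bases with the antisense gene Gm47118. The other ligand genes gave almost no reads: Edn2 had 0 counts, and Edn3 had 1 and 4 counts in the knockout libraries and 0 in the other 4.

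Ece1, the converting enzyme (chromosome 4, 137862237 to 137965229), was the most abundant of the 7 genes per length, at 42.7 ± 0.323, 49.0 ± 0.610 and 57.2 ± 0.140 CPM per kilobase in wild type, heterozygous and knockout (SD, n = 2). Its CPM were 225.3 and 227.7 in wild type, 261.7 and 257.1 in heterozygous, and 303.7 and 302.6 in knockout. The genotypes did not overlap, and the steps were small. Heterozygous exceeded wild type by 0.20 ± 0.03 log2 (SE), knockout exceeded it by 0.42 ± 0.03, and knockout exceeded heterozygous by 0.22 ± 0.03. With library totals in place of TMM scaling these became 0.15, 0.44 and 0.29.

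Agt, the angiotensinogen gene (chromosome 8, 124556587 to 124569706), was high in both mutant genotypes. It had 64 and 45 counts in wild type (1.88 and 1.32 CPM), 332 and 339 in heterozygous (11.5 and 10.7 CPM) and 433 and 444 in knockout (13.1 and 13.0 CPM). Wild type lay far below, and knockout slightly above heterozygous. Heterozygous exceeded wild type by 2.79 ± 0.19 log2 (SE), or 6.90-fold, and knockout by 3.03 ± 0.18, or 8.14-fold. Knockout and heterozygous differed by 0.24 ± 0.15.

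Agt is transcribed chiefly in liver, fat cells and astrocytes, and markers of these cells were compared. Liver markers were near 0, with Apoa1 and Serpina1a at 0 counts throughout and the sum of the 4 at most 0.121 CPM. Astrocyte markers summed to 17.9 to 18.7 CPM in wild type, 39.4 to 47.2 in heterozygous and 37.3 to 39.2 in knockout, with Aqp4 at 0. Most of this sum came from Aldh1l1 (12.3, 22.8 and 29.2 CPM) and Slc1a3 (4.5, 19.5 and 8.2 CPM). Slc1a2 was highest in wild type (1.43, 0.765 and 0.76 CPM), and Gfap was at most 0.346 CPM in any library. The 9 adipocyte markers summed to 209 to 212, 388 to 392 and 507 to 512 CPM in wild type, heterozygous and knockout. This sum was lowest in wild type, as Agt was, and was led by Lpl (149.3, 272.3 and 376.2 CPM). All 7 markers tested were higher than wild type in both mutant genotypes (background 19.2% in each comparison), but Plin1 was highest in heterozygous (0.0589, 0.929 and 0.419 CPM). Lep was at 0 in every library and Adipoq at 0.265 to 2.25 CPM. The part of these cells in the Agt difference was not tested.

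Ace, the angiotensin-converting enzyme gene (chromosome 11, 105967948 to 105989964), was barely detected. It had 2 and 1 counts in wild type, 28 and 15 in heterozygous and 8 and 12 in knockout. The genotypes did not overlap, as for 65.7% to 67% of all genes by comparison, and heterozygous was highest. In the fit, knockout against heterozygous gave a log2 fold change of -1.26 ± 0.76 (SE), which was not called. Knockout against wild type gave 2.65 ± 1.06, a call lost in DESeq2, without the filter and with a replicate block. The order of the 2 mutant genotypes is therefore uncertain. The summed counts gave a ratio of 16.1 for heterozygous to wild type (exact 95% interval 5.15 to 81.0, for counting error only), 6.76 for knockout to wild type (2.00 to 35.5) and 0.420 for knockout to heterozygous (0.234 to 0.730). Ace passed the filter on low counts through 2 heterozygous libraries and 1 knockout library, so that its difference from wild type was a condition of its being tested, and it is left out of the counts below. Fitted log2 fold changes of heterozygous against wild type, which depend on the prior count, ran from 3.32 without heterozygous library 1 to 4.44 without wild-type library 1, against 3.91 with all libraries. An annotated antisense gene, Gm11651, overlaps up to 173 bases of an exon.

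Agtr1a, the main type 1 angiotensin receptor gene (chromosome 13, 30336356 to 30382867), was highest in heterozygous. It had 75 and 58 counts in wild type (2.2 and 1.71 CPM), 260 and 311 in heterozygous (9.02 and 9.78 CPM) and 111 and 114 in knockout (3.37 and 3.34 CPM). The genotypes did not overlap. Heterozygous exceeded wild type by 2.26 ± 0.22 log2 (SE), or 4.8-fold, and knockout by 0.78 ± 0.23, or 1.71-fold, with knockout 1.49 below heterozygous on the log2 scale (SE 0.21).

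Agtr1a has a near copy, Agtr1b, and their reads can be confused. Over 1077 coding bases the 2 genes were 90.8% identical, and the longest run they share, bases 75 to 140 of the Agtr1a coding sequence, is shown because a read that falls inside it has no single origin.
Agtr1a and Agtr1b shared run: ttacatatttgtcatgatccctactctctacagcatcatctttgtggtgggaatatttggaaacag
Agtr1b had 2 and 10 counts in wild type, 13 and 9 in heterozygous and 27 and 35 in knockout. It was highest in knockout, where Agtr1a was not, and per length Agtr1a exceeded it 28.9 and 4.47 times in the wild-type libraries, 15.4 and 26.6 times in the heterozygous and 3.17 and 2.51 times in the knockout libraries. The wild-type ratios, which rest on 2 and 10 counts of Agtr1b, spread widely. The Agtr1b ratio of knockout to wild type was 5.24 (exact 95% interval 2.80 to 10.7, counting error only). This interval leaves out the spread between libraries. Agtr1b passed the filter on low counts through 2 knockout libraries and 1 heterozygous library. Its excess over wild type was thus partly a condition of its being tested, and the ratio is a description only.

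**Figure D2:**
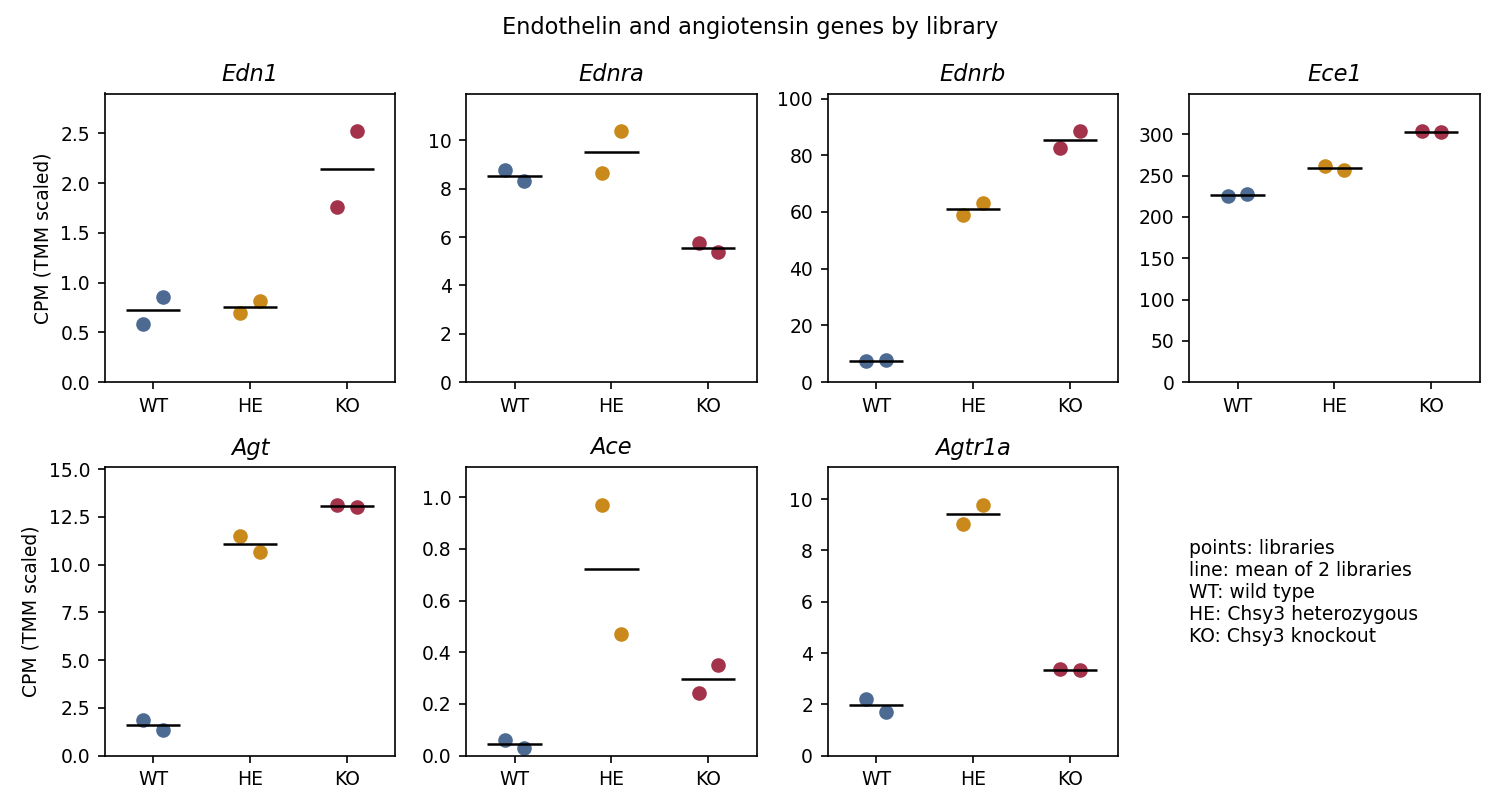
CPM of the 7 genes, 1 panel each with its own linear axis from 0; points are libraries and lines the mean of 2 libraries for wild type (WT), heterozygous (HE) and knockout (KO). Ednrb, Ece1 and Agt are lowest in wild type and highest in knockout, Ace and Agtr1a are highest in heterozygous, Edn1 is high in knockout alone, and Ednra is low in knockout.

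Per length, the order of the genes shifted with genotype. In wild type Ece1 (42.7 CPM per kilobase) was followed by Ednrb and Ednra (1.78 and 1.56), by Agt and Agtr1a (0.848 ± 0.208 and 0.702 ± 0.126, within their spread of each other), by Edn1 (0.337 ± 0.0878) and by Ace (0.00834). In knockout Ednrb (20.0) and Agt (6.92 ± 0.0448) followed Ece1, and Agtr1a, Ednra and Edn1 stood close together at 1.2 ± 0.00646, 1.02 ± 0.0516 and 1.0 ± 0.252 (SD, n = 2). In heterozygous libraries the order was Ece1, Ednrb (14.3), Agt (5.86), Agtr1a (3.37), Ednra (1.74), Edn1 (0.353) and Ace (0.136).

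The 7 genes were picked with their fold changes known, so their share of calls and median were partly fixed by that choice. Counts and medians below describe the genes and test nothing, and shares of the whole table are given for scale only. A call is an adjusted p under the threshold of 0.05 in edgeR's quasi-likelihood test with Benjamini-Hochberg adjustment over all 16061 genes. In knockout against wild type, 5 of the 6 genes other than Ace were called higher (background 19.2%) and 1 lower (background 18.9%), where 38% of all genes were called. The libraries of the 2 genotypes did not overlap for 6 of 6, against 66.6% of all genes. In heterozygous against wild type, 4 of 6 were called higher (background 19.2%) and 0 lower (background 19.7%), where 38.9% of all genes were called, and 4 of 6 did not overlap, against 67% of all genes. In knockout against heterozygous, 3 of 6 were called higher (background 19.1%) and 2 lower (background 17.9%), where 37.1% of all genes were called, and 6 of 6 did not overlap, against 65.7%. The split of all genes in that comparison, 3070 higher and 2881 lower, became 4126 and 2256 with library totals alone. The knockout calls of Edn1 against wild type were lost without wild-type library 1 or knockout library 2, and that of Agtr1a without wild-type library 2. Against heterozygous, the call of Edn1 was lost without knockout library 2. The median log2 fold change of the 6 was 1.17, 1.23 and 0.23 in the order of these comparisons, against medians of all genes of -0.0031, -0.0029 and 0.012. The comparisons share libraries, and the values of a gene in them are not independent.

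**Figure D3:**
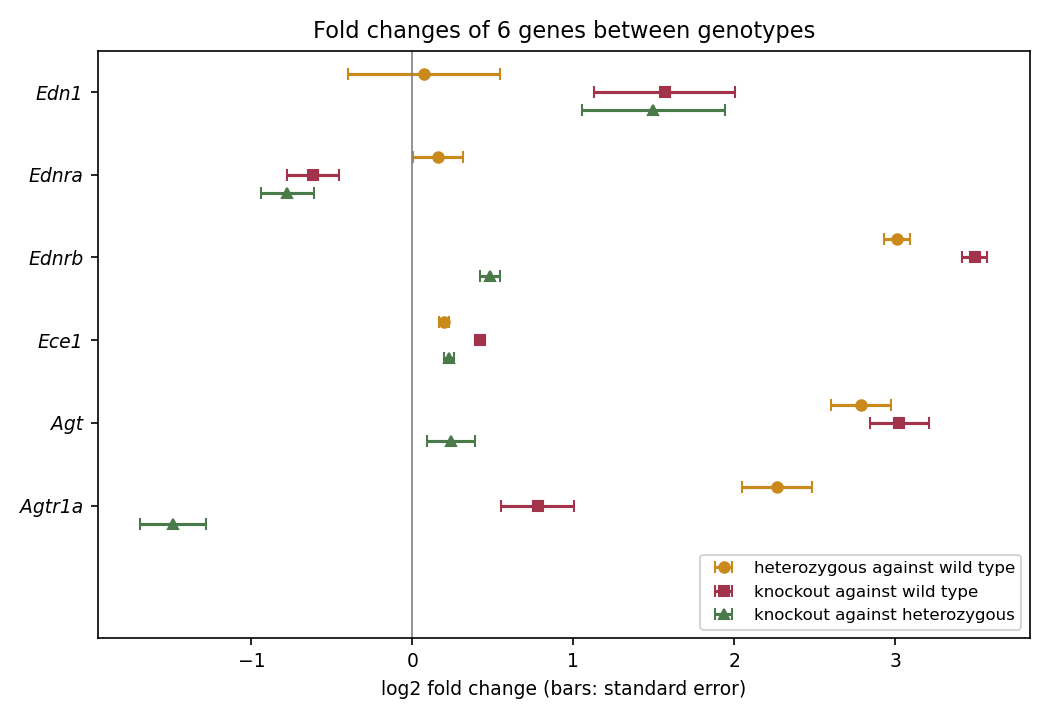
Log2 fold changes with standard errors for 6 genes in the 3 comparisons; Ace is left out because wild type held 3 counts in all. Ednrb and Agt lie near 3 in both mutant genotypes against wild type, and Agtr1a is at 2.26 in heterozygous and 0.78 in knockout.

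Genes with the courses most like those of the 7 were sought among named genes that averaged 3 log2 CPM or more, by the root-mean-square difference of centred log2 CPM over the 6 libraries. The genes nearest to Ednrb were Esm1, which encodes the proteoglycan endocan (difference 0.29), Clca3a1 (0.34) and the dipeptidase gene Dpep1 (0.37). Nearest to Agt were again Esm1 (0.19), then Ednrb itself (0.26) and the stanniocalcin gene Stc1 (0.26). Esm1 had 4.07, 36.7 and 36.8 CPM in wild type, heterozygous and knockout. For Agtr1a they were the growth factor gene Vegfd (0.14), Gas1 (0.14) and Col28a1 (0.16), all highest in heterozygous, with Vegfd at 34.4, 151 and 55.6 CPM. For Ace they were the prostaglandin receptor gene Ptgfr (0.28), Adgrg2 (0.33) and Serpina3n (0.34).

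Edn1 was most like Vwf (0.21), the von Willebrand factor gene of endothelial cells, at 20.4, 21.0 and 54.9 CPM, then Lgals3 (0.23) and Ccl2 (0.26). The endothelial marker sums given above were highest in knockout, but Vwf is itself their largest part, so they are not independent of this likeness. Of 6 tested endothelial markers 3 were higher (background 19.2%) and 2 lower (background 18.9%) in knockout than in wild type. Cdh5 (6.54, 0.73 and 0.99 CPM) and Esam (2.29, 0.031 and 0.12 CPM) were highest in wild type. The part of endothelial cells in the Edn1 difference was not tested. Ednra was most like Nyap1 (0.0732), Cdc42ep5 (0.0755) and Nbea (0.0757), and Ece1 like Wdfy2 (0.013), Cpeb4 (0.018) and Fyb (0.018). Small differences are easier to reach for genes that vary little, as Ece1 does, with an SD of 0.19 log2 over the libraries against 1.69 for Ednrb.

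The rest of both systems was listed by function as 34 further genes. Renin gave almost no reads, with 1 count of Ren1 in a wild-type library and 0 of its near copy Ren2. The annotation used for exon lengths held no Ren2, so its 0 counts cannot tell a silent gene from one missing in the reference. Of the 34, 7 had 0 counts in every library (Edn2, Kel, Ren2, Ace3, Cma1, Cpa3 and Klk1). The receptor gene Mas1 had 2 counts in heterozygous library 1 and 0 elsewhere. The filter kept 20, among them Agtr1b and Ctsg, which passed mainly through the knockout libraries and are left out of the next counts. Of the other 18, 8 were higher and 4 lower in knockout against wild type, 9 higher and 5 lower in heterozygous against wild type, and 7 higher and 6 lower in knockout against heterozygous, with median log2 fold changes of 0.054, 0.099 and 0.099. Of all genes, 19.2% were higher and 18.9% lower in the knockout and wild-type comparison, 19.2% and 19.7% in the heterozygous and wild-type comparison, and 19.1% and 17.9% between knockout and heterozygous.

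Agtr2, the type 2 angiotensin receptor gene, which often opposes the type 1 receptor, lies on chromosome X and rose in heterozygous together with Agtr1a. As given above, genotype and the sex-linked difference cannot be told apart in the heterozygous comparisons of this X-linked gene. Its CPM were 4.67 and 6.12 in wild type, 26.5 and 26.2 in heterozygous and 8.62 and 6.92 in knockout. Heterozygous stood far above both other genotypes. The log2 fold change was 2.29 ± 0.14 (SE) in heterozygous over wild type (edgeR, adjusted p = 7.22e-18), -1.76 ± 0.13 in knockout against heterozygous (edgeR, adjusted p = 9.62e-15) and 0.52 ± 0.15 in knockout against wild type (edgeR, adjusted p = 0.00396). That last call was lost without wild-type library 1 or knockout library 1, in a range of adjusted p from 0.000332 to 0.124 over 13 alternatives. Per length, the ratio of Agtr2 to Agtr1a was 1.78 and 3.0 for wild type, 2.46 and 2.25 for heterozygous and 2.14 and 1.73 for knockout, and the wild-type range spanned those of heterozygous and part of knockout.

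The membrane peptidase genes Mme, Enpep and Anpep rose in both mutant genotypes against wild type. Mme encodes neprilysin, which degrades both peptides, and its CPM were 12.6 and 12.4 in wild type, 57.9 and 57.5 in heterozygous and 28.5 and 29.7 in knockout, with heterozygous highest. It rose by 2.21 ± 0.08 log2 (SE) in heterozygous (edgeR, adjusted p = 1.74e-25) and by 1.22 ± 0.08 in knockout (edgeR, adjusted p = 3.8e-16) against wild type. Enpep, the aminopeptidase that turns angiotensin II into angiotensin III, had 75 and 80 counts in wild type, 258 and 318 in heterozygous and 417 and 300 in knockout. It rose by 2.06 ± 0.19 (edgeR, adjusted p = 6.2e-12) and 2.23 ± 0.19 log2 (edgeR, adjusted p = 3.45e-13) in that order, and the CPM of the 2 mutant genotypes overlapped. Anpep, which trims the product further, was at 299.6 and 303.5, 438.3 and 413.1, and 672.1 and 647.8 CPM. It rose by 0.50 ± 0.03 in heterozygous (edgeR, adjusted p = 1.29e-18) and 1.13 ± 0.03 log2 in knockout (edgeR, adjusted p = 1.78e-31).

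Changes of the other enzyme genes named here were smaller. The aspartic protease gene Ctsd, whose product can cut angiotensinogen, rose by 0.53 ± 0.02 log2 (SE) in knockout (edgeR, adjusted p = 1.2e-26) and by 0.22 ± 0.02 in heterozygous (edgeR, adjusted p = 2.39e-13) against wild type. The prorenin receptor gene Atp6ap2 was at 118.3 ± 1.73, 117.7 ± 3.74 and 157.8 ± 2.17 CPM in wild type, heterozygous and knockout (SD, n = 2), and rose in knockout against wild type (log2 0.42 ± 0.04, edgeR, adjusted p = 1.85e-11). Both genes are abundant in macrophages, whose 8 markers summed to 12600 to 12900, 15700 to 15800 and 14500 to 14600 CPM in the 3 genotypes. Lyz2 led the sum (7211, 8845 and 7025 CPM). In knockout against wild type 5 of the 8 markers were higher (background 19.2%) and 0 lower (background 18.9%). Among the higher were Cd68 at 610.3, 713.3 and 893.4 CPM and Itgam at 553.6, 687 and 846 CPM. In heterozygous against wild type 5 macrophage markers were higher (background 19.2%) and 1 lower (background 19.7%). The part of these cells in the Ctsd and Atp6ap2 changes was not tested. Furin, which cuts the endothelin precursor before Ece1 does, was at 247.2 ± 6.14, 211.5 ± 6.41 and 231.8 ± 0.018 CPM (SD, n = 2), and fell in heterozygous (log2 -0.23 ± 0.03 from wild type, edgeR, adjusted p = 3.97e-07). Its smaller knockout decrease (log2 -0.09 ± 0.03, edgeR, adjusted p = 0.0225) was lost under 4 of 13 alternatives, in a range of 0.018 to 0.227. The second converting enzyme gene, Ece2, changed by 0.26 ± 0.09 log2 in heterozygous (edgeR, adjusted p = 0.0149), a call lost without wild-type library 2 or heterozygous library 2 (range 0.0117 to 0.191). An exon of Ece2 shares 861 bases with a gene on the same strand, so its counts are uncertain.

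**Figure D4:**
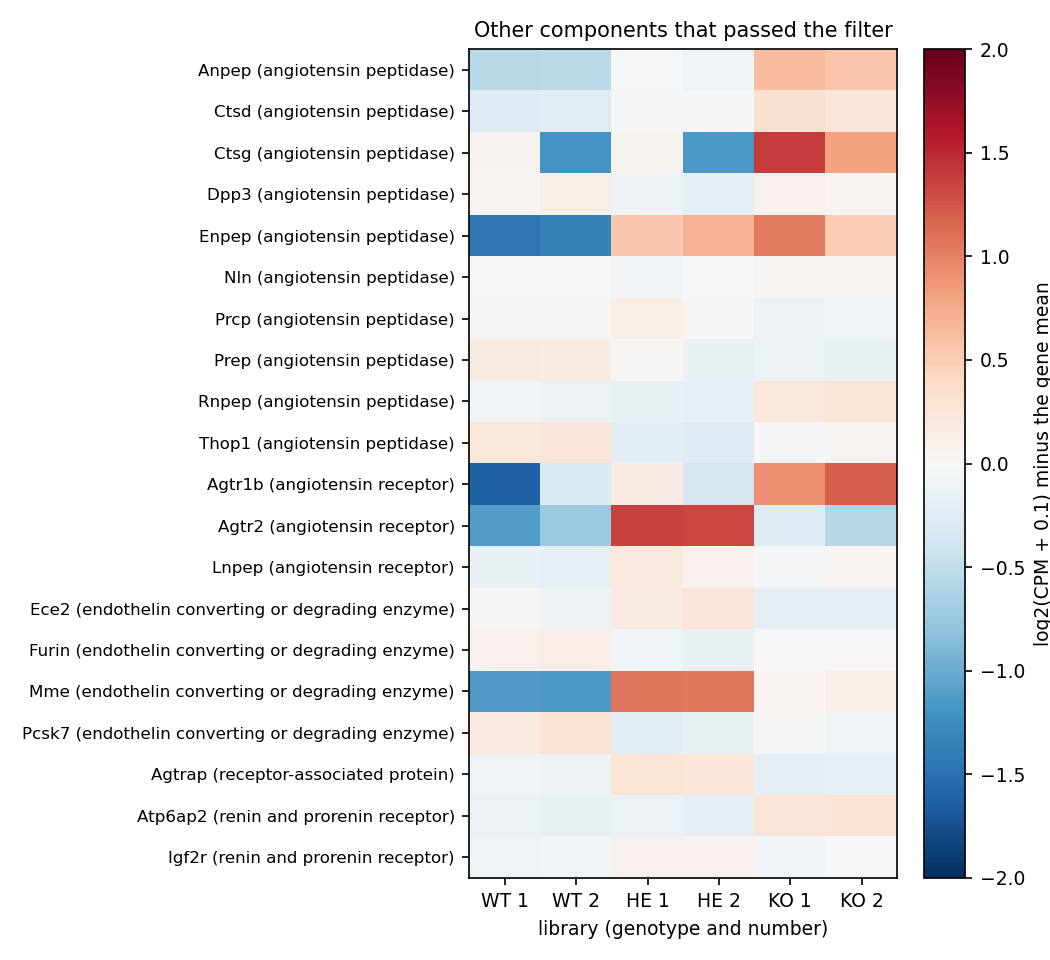
Log2 CPM, with 0.1 CPM added, minus the gene mean, for the 20 further components that passed the filter (rows, with their role) in the 6 libraries (columns). Agtr2 and Mme are highest in both heterozygous libraries, Enpep is low in wild type alone, and Anpep climbs from wild type over heterozygous to knockout.

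Signalling genes below the receptors went both ways. Of 41 genes of G proteins, phospholipases, calcium release, kinases, RGS proteins and arrestins, 16 rose and 10 fell in knockout against wild type, 13 and 9 in heterozygous against wild type, and 15 and 11 in knockout against heterozygous. That is 26 of 41, 22 of 41 and 26 of 41 called, where 38%, 38.9% and 37.1% of all genes were. Here and for the other lists, all genes were not matched for expression level, on which the share called can depend. The median log2 fold changes were 0.098, 0.024 and 0.059. In knockout the arrestin gene Arrb1 rose by 0.67 ± 0.04 log2 (SE), the phospholipase gene Plcb2 by 0.96 ± 0.07, Rgs2, a brake on Gq signalling, by 0.78 ± 0.06, and the kinase gene Ptk2b by 0.41 ± 0.03 (edgeR, adjusted p at most 7.91e-14). The other RGS genes of the list split. Mean Rgs4 (5.07, 4.51 and 1.19 CPM in wild type, heterozygous and knockout) and Rgs16 (13.15, 11.0 and 6.32 CPM) were lowest in knockout. Mean Rgs3 (30.25, 44.4 and 42.1 CPM) and Rgs5 (2.0, 2.5 and 2.96 CPM) were lowest in wild type. In heterozygous the calcium release channel gene Itpr1 rose by 0.52 ± 0.05, Arrb1 by 0.34 ± 0.04 and the Gq subunit gene Gnaq by 0.36 ± 0.04, and the receptor kinase gene Grk5 fell by 0.59 on the log2 scale (edgeR, adjusted p at most 9.04e-09). Gna11, a related G protein gene of the list, went the other way (116.6, 96.2 and 82.7 CPM in wild type, heterozygous and knockout). Plcb2 and Ptk2b are rich in macrophages, and the marker values of these cells given above apply here.

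Genes that endothelin-1 or angiotensin II can induce went both ways. Leaving out Nox1, which passed the filter through the knockout libraries, 9 of 26 were higher and 16 lower in knockout against wild type, 8 and 14 in heterozygous against wild type, and 10 and 11 in knockout against heterozygous, with medians of -0.36, -0.11 and 0.017 log2. Over all genes 38%, 38.9% and 37.1% were called, split almost evenly by direction. The adhesion gene Vcam1 rose in heterozygous by 1.52 ± 0.05 log2 (SE; edgeR, adjusted p = 9.52e-28) and Ctgf fell there by 0.82 on the log2 scale (edgeR, adjusted p = 1.95e-29). In knockout the genes with the smallest p-values all fell, Col1a1 by 0.97, Thbs1 by 0.69, Fn1 by 0.62 and Acta2 by 0.73 on the log2 scale (edgeR, adjusted p at most 1.27e-30). Several of these are also markers of fibroblasts or smooth muscle, and the 7 fibroblast markers summed to 29900 to 30400 CPM in wild type, 33500 to 34400 in heterozygous and 18500 to 18700 in knockout. Nearly all of that sum was Fn1, Col1a1 and Col3a1, which the induced list holds too. Of the 7 fibroblast markers 3 were higher (background 19.2%) and 4 lower (background 18.9%) in knockout against wild type. The higher ones were Pdgfra at 94.0, 295.1 and 183.4, Dcn at 113.9, 341.5 and 200.5, and Lum at 12.3, 38.3 and 24.9 CPM in wild type, heterozygous and knockout.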

How the data were processed

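RNA sequencing counts of 6 libraries, 2 per genotype, were used. The deposited values are raw read counts per gene symbol, judged from the values, which are whole and sum to a different total in every library. Per the submitters' processing notes the build was GRCm38 and HISAT2 2.0.4 was used. Counting tool, annotation and strandedness: not given in the sources used here. Total counts were 29622117 to 33899611, and 0 entries named no gene.

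Counts were tested in edgeR 4.0.16 (R 4.3.3) with TMM factors of 0.974 to 1.02, the default filter by group (16061 genes) and a robust quasi-likelihood fit of all 6 libraries with 3 residual degrees of freedom, two-sided, with Benjamini-Hochberg adjustment. The p-values rest only on the spread among these libraries, which may be technical. The procedure was tested on simulated data. CPM are means with SD of 2 libraries, log2 CPM use a prior count of 2, and exon lengths come from GENCODE M21. Positions come from RefSeq on GRCm38.p6, overlapping genes and coding sequences from GENCODE.

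The 7 genes and all lists were chosen with earlier results of these data known. Named list members were those with the 4 smallest adjusted p in a comparison and any further endothelin or angiotensin component by role. The 3 nearest genes by course were named too. Adjusted p-values of named genes thus describe genes selected on these data. Further RGS and G protein genes were named after their values were seen. Alternatives were RLE factors, library totals, DESeq2 1.42.0, no filter, a stricter filter (1 CPM in 2 libraries), only the 4 libraries compared, a replicate block and leaving out each library.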

Additional observations from a re-analysis of the deposited data

How the results depend on the processing

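Over 13 alternatives the number of genes called stayed within 5064 to 6261 in knockout against wild type, 5186 to 6390 in heterozygous against wild type and 4823 to 6382 in knockout against heterozygous, and the 6 genes other than Ace gave 5 to 6, 4 and 4 to 5 calls. The 20 further components tested gave 10 to 14, 13 to 15 and 11 to 15. Leaving out single libraries gave 5064 to 6261, 5186 to 6228 and 4823 to 6057 genes called, 5 to 6, 4 to 4 and 4 to 5 of the 6 genes, and 10 to 13, 13 to 14 and 11 to 14 components. The direction of Edn1 in heterozygous against wild type, changed without wild-type library 1 (log2 -0.172) and without heterozygous library 2 (-0.0585), in a range of -0.172 to 0.362. The Ace log2 fold change in heterozygous against wild type ranged from 3.32 (without heterozygous library 1) to 4.44 (without wild-type library 1), in knockout against wild type from 2.27 to 3.18, and in knockout against heterozygous from -1.69 (without heterozygous library 2) to -0.664 (without heterozygous library 1). The stricter filter removed Ace from the fit. Ednrb stayed at 3.44 to 3.54 and Agt at 2.79 to 3.30 log2 in knockout against wild type.

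Replicate numbers are shared between genotypes, but same-numbered libraries did not deviate together (correlations -0.025, 0.0092 and 0.022), so they share only a number. With the replicate block 6080, 6222 and 5913 genes were called and 13, 14 and 13 components, and the log2 fold change of Ednrb in knockout was 3.49. Without both heterozygous libraries, an alternative added after the data were seen, 17 signalling genes were higher and 10 lower in knockout, 10 and 16 of the induced genes, and 14 and 4 of the other vasoactive genes. Depth limits Edn1, Ace, Agtr1b and renin, whose counts are low.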

Other observations

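Other vasoactive and salt-regulating systems held genes with courses of the same kinds. Of 27 tested genes of natriuretic peptides, adrenomedullin, kinins, vasopressin, apelin, nitric oxide, prostanoids and mineralocorticoids, 14 rose and 4 fell in knockout against wild type, 12 and 4 in heterozygous against wild type, and 6 and 10 in knockout against heterozygous, with medians of 0.22, 0.13 and 0.094 log2. Of all genes, 19.2% were higher and 18.9% lower in the first of these comparisons, 19.2% and 19.7% in the next, and 19.1% and 17.9% in the last. Nos1, Nos3 and Npr1, which passed the filter through 3 libraries each, are left out of these counts. Apln, the gene of the vasodilator peptide apelin, had 41 and 55 counts in wild type, 307 and 308 in heterozygous and 395 and 435 in knockout (1.41 ± 0.292, 10.2 ± 0.678 and 12.4 ± 0.544 CPM, SD, n = 2). From wild type it rose by 2.84 ± 0.19 log2 (SE) in heterozygous (edgeR, adjusted p = 3.05e-16) and by 3.13 ± 0.19 in knockout (edgeR, adjusted p = 6.88e-18). Its receptor gene Aplnr had at most 4 counts in any library.

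The genes given p-values here were selected on these data, by adjusted p or, for the vasopressin receptor gene Avpr1a, after its values were seen. Avpr1a was at 7.26 and 8.74 CPM in wild type, 25.6 and 25.5 in heterozygous and 17.6 and 14.5 in knockout. It rose by 1.68 ± 0.12 log2 (SE) from wild type to heterozygous (edgeR, adjusted p = 2.17e-15) and was lower in knockout than in heterozygous (log2 -0.67 ± 0.11, edgeR, adjusted p = 4.91e-06). Adm, the adrenomedullin gene, rose by 0.79 ± 0.04 in heterozygous and 0.67 ± 0.04 log2 in knockout (edgeR, adjusted p at most 4.99e-17), and its scavenger receptor gene Ackr3 by 1.30 ± 0.09 and 1.0 ± 0.09 (edgeR, adjusted p at most 3.03e-12). Among the genes that fell, Pde5a, which breaks down cyclic GMP, was at 103.3 ± 2.23, 50.01 ± 1.12 and 39.4 ± 1.95 CPM (SD, n = 2; log2 -1.05 ± 0.06 and -1.39 ± 0.06 from wild type, edgeR, adjusted p at most 2.07e-19), and Ptgis, the prostacyclin synthase gene, fell by 0.98 on the log2 scale in knockout (edgeR, adjusted p = 1.04e-16).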
